A study of Mus musculus with 12 samples.

Results

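Immediate early transcription factors are genes that a cell switches on within minutes of a signal, without first making new protein. The 10 followed here were Egr1, Egr2 and Egr3 (zinc finger factors of the EGR family), Fos, Fosb, Jun and Junb (subunits of the AP-1 dimer), Atf3 (a related leucine zipper factor of the ATF family), Nr4a1 (an orphan nuclear receptor) and Ier3 (an early response protein that acts on cell survival rather than on DNA). They were chosen by name, and each probe set carrying one of these symbols alone was used. That gave 12 probe sets of the 28898 with a single gene symbol, with 2 each for Egr2 and Jun and 1 for each of the others.

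The arrays were 12 Affymetrix arrays of dendritic cells (DCs), the antigen-presenting cells that take up material and show it to T cells, taken from individual spleens by positive selection. All mice were 10-week-old C57BL/6 males, either miR-142 knockout (KO) or wild-type (WT) littermates, and the cells were unstimulated or exposed to lipopolysaccharide (LPS), a bacterial cell wall component. The 4 groups (WT unstimulated, WT with LPS, KO unstimulated and KO with LPS) held 3 arrays each. The sources used here give neither the dose of LPS, its duration nor whether mice or isolated cells received it, and they leave out the form of the knockout allele.

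miR-142 is a microRNA of blood cells made from a single hairpin whose arms both enter the silencing complex, and each arm pairs with messenger RNA mainly through its seed. The arms are shown because the knockout is of this microRNA, 5′ to 3′, with bases 2 to 8, the seed, in capitals (RefSeq, GRCm38.p6, chr11:87756867-87756887 for the 5p arm and chr11:87756903-87756925 for the 3p arm, plus strand).
mmu-miR-142a-5p: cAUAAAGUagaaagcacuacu
mmu-miR-142a-3p: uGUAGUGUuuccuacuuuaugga
No probe set carried the Mir142 symbol alone, so the microRNA itself was not analysed here.

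In myeloid cells LPS acts through the receptor TLR4, whose MAP kinase and NF-kB branches reach immediate early promoters through serum response factor (bound at CArG boxes), CREB (bound at CRE sites) and NF-kB. The transcripts are short-lived, rising and falling within hours. EGR factors share DNA sites and include feedback regulators of cytokine genes, FOS proteins need a JUN partner to bind AP-1 sites, ATF3 restrains cytokine genes in macrophages after LPS, and NR4A1 limits inflammatory programmes in myeloid cells. Several of these genes are also known to rise when tissue is dissociated into single cells.

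The promoters of Egr2, Nr4a1 and Ier3 are printed because the differences below turn on these 3 genes. Each runs from 250 bases before to 50 bases after a RefSeq transcript start (GRCm38.p6, all on the plus strand), and the capitals mark matches to CArG boxes, short CRE sites (TGACG), EGR sites (GCGNGGGCG) and NF-kB sites, read on both strands. Egr2 lies on chromosome 10 at chr10:67534469-67542188, Nr4a1 at chr15:101253902-101274795 and Ier3 at chr17:35821713-35822911.
Egr2 (chr10:67537619-67537918): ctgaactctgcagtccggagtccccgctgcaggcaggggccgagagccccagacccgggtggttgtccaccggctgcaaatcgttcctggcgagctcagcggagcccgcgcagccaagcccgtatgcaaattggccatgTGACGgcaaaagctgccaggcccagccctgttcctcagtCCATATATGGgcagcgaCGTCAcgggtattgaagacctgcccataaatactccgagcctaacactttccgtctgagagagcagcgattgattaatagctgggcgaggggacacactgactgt
Nr4a1 (chr15:101266596-101266895): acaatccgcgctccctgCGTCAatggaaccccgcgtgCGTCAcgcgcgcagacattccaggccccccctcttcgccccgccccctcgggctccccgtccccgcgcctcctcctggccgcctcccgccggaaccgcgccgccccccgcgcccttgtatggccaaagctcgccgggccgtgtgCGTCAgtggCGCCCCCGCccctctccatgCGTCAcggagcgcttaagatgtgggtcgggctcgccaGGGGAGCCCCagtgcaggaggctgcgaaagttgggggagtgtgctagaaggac
Ier3 (chr17:35821463-35821762): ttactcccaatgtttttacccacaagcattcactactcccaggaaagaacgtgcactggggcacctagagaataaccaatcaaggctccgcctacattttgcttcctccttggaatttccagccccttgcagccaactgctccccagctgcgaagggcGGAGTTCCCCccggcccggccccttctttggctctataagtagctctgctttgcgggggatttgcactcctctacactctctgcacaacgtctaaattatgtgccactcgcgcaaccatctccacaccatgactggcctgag

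The Egr2 window holds a CArG box at -72 to -63, counting the transcript start as 0, between a pair of short CRE sites. The Nr4a1 window holds 4 short CRE sites, an EGR site at -60 to -52 and an NF-kB site at -3 to 6, and the Ier3 window holds an NF-kB site at -92 to -83. Promoters of 8 of the 10 genes (12 windows) were searched, without Egr1 and Egr3. The search left out chromosome 18, where Egr1 lies, and held no window for Egr3. Within the windows of the 8 genes searched, a CArG box was found in Egr2 alone, in 4 of its 5 windows. Of 32851 mouse promoter windows of the same length, 1.63% held one. The Egr2 windows from 67537619, 67537620 and 67537680 overlap and hold the same box. Bases further upstream were not searched for any gene. Whether Egr1 or Egr3 holds a CArG box was not examined. Short CRE sites were found in 6 of the 8 genes (20.81% of all windows), NF-kB sites in Fosb, Fos, Nr4a1 and Ier3 (4.51%) and EGR sites in Fosb and Nr4a1 (5.55%). The full CRE TGACGTCA (1.79% of all windows) and the AP-1 site TGANTCA (7.81%) were found in none. These matches describe the printed letters only.

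DC genes were bright, with group means of 9.44 to 9.55 for the MHC class II gene H2-Aa and 7.02 to 7.52 for Itgax, which encodes CD11c. The T cell receptor complex gene Cd3e stayed at 3.73 to 3.97, and the sample descriptions name T cells where all other labels name DCs. Array 2 of the KO group with LPS stood apart from the other 11. Its correlation with them ran from 0.930 to 0.956, and Gapdh probes at the 3′ end exceeded those from mid-transcript by 3.04 log2 units, where other arrays gave 1.53 to 1.86. For beta-actin this excess was 0.94 on that array and 0.02 to 0.16 on the rest. The 14 measured DC genes averaged 6.705 on that array and 7.21 to 7.37 on the rest. The main values that rest on this array are given with and without it. The 12 measured neutrophil markers had mean levels of 3.33 to 4.42 on all WT arrays and 5.52 to 8.07 on all KO arrays, and the 13 measured NK cell markers 3.85 to 4.50 and 5.56 to 5.81. The 6 probe sets of the spiked bioB control averaged 8.56 ± 0.23 (SD, n = 3) in WT unstimulated, 8.03 ± 0.12 in WT with LPS, 7.85 ± 0.31 in KO unstimulated and 7.69 ± 0.47 in KO with LPS. The part of these differences in the values below was not tested. In bulk RNA, fewer cells of a type and less RNA per cell cannot be told apart.

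All values are the deposited log2 signals, so a difference of 1 is a doubling, and the ± after a difference is limma's SE. Differences were called at a Benjamini-Hochberg adjusted p under 0.05 over all 28898 probe sets. With all 12 arrays, limma called 0 of the 12 probe sets in each of 5 comparisons. At an unadjusted p under 0.05 there were 4 between genotypes unstimulated, 2 between genotypes after LPS, 2 for LPS in WT, 3 for LPS in KO and 0 for the difference between the LPS effects. The shares of all probe sets under that unadjusted cut were 8.49%, 13.9%, 4.93%, 9.53% and 3.95%, in the same order. Calls were rare on the whole array, at 0.163% of probe sets between unstimulated genotypes, 0.322% between genotypes after LPS, 0.128% for LPS in WT, 0.301% for LPS in KO and 0% for the difference between the LPS effects. Without KO LPS array 2, both Egr2 probe sets were called between unstimulated genotypes (0.851% of all probe sets), 1 of them was also called after LPS (0.433%), and Nr4a1 was called for LPS in KO (0.464%). In that fit 0 of the 12 were called for LPS in WT (0.36%). The 4 pairwise comparisons share arrays, so their values are set side by side and not counted against each other.

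**Figure D1:**
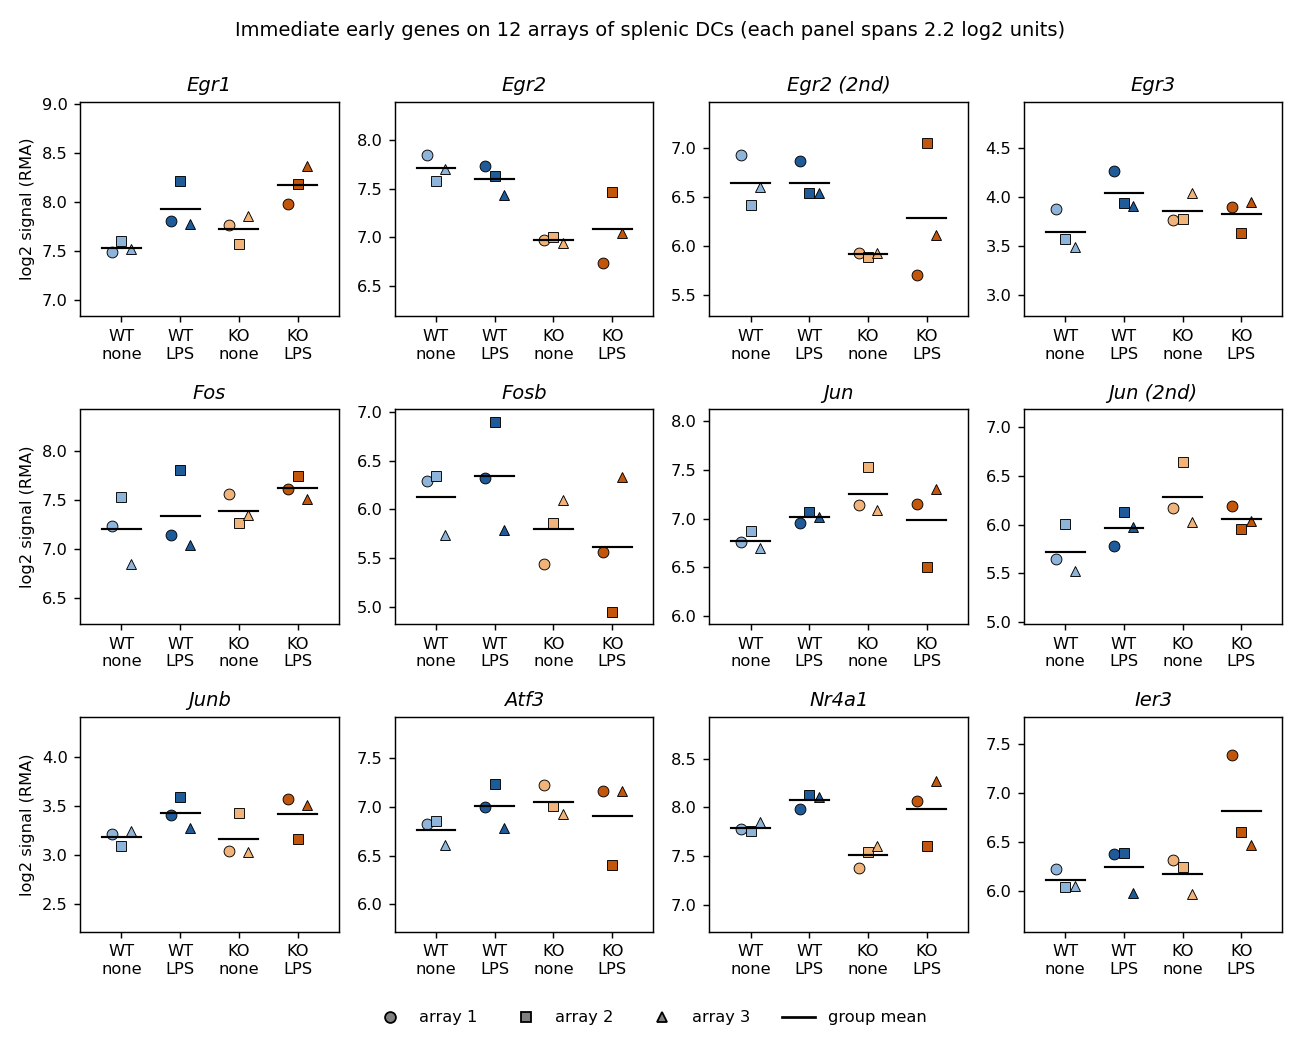
Log2 signal of the 12 probe sets on each array, by group, with array numbers as symbols and group means as lines ("2nd" marks the dimmer probe set of a gene). The 3 unstimulated KO arrays lie below the 3 unstimulated WT arrays for both Egr2 probe sets, and array 2 of the KO group with LPS departs from the other KO LPS arrays for several genes.

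Egr2 read lower on the unstimulated KO arrays than on the WT arrays, a difference that passed the threshold without KO LPS array 2 but not with all 12 arrays. Its brighter probe set read 7.84, 7.58 and 7.70 on the WT unstimulated arrays and 6.97, 7.00 and 6.95 on the KO unstimulated arrays. All 3 KO arrays lay below all 3 WT arrays, and the KO arrays differed among themselves by less than 0.1. The difference was -0.73 ± 0.16, with a 95% confidence interval of -1.08 to -0.39, or 0.602 of the WT level (limma adjusted p = 0.127). Without KO LPS array 2, which is in neither group but enters the shared estimate of the spread, the same difference had an SE of 0.12 and an adjusted p of 0.0122. With only the 6 arrays compared in the fit, the adjusted p was 0.0261.

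The second Egr2 probe set gave the same picture at a lower level. It read 6.93, 6.41 and 6.60 in WT and 5.93, 5.88 and 5.92 in KO, unstimulated, again without overlap. The difference was -0.74 ± 0.26 (adjusted p = 0.439), and its adjusted p was 0.0396 without KO LPS array 2. Both probe sets measure Egr2 in the same RNA, so they are not independent.

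After LPS the Egr2 gap rested on which KO arrays were counted. The brighter probe set read 7.73, 7.63 and 7.43 in WT with LPS and 6.74, 7.47 and 7.04 in KO with LPS. KO arrays 1 and 3 lay below all WT arrays, while KO array 2 lay among them. The difference was -0.52 ± 0.16 (adjusted p = 0.199) with all arrays and -0.71 ± 0.13 (adjusted p = 0.0387) without KO LPS array 2. For the second probe set, KO LPS array 2 (7.05) was the highest of all 12 arrays. Its differences with and without that array were -0.36 ± 0.26 (adjusted p = 0.568) and -0.74 ± 0.17 (adjusted p = 0.0902). The level of the brighter Egr2 probe set over the second averaged 0.97 log2 units and was smallest, 0.42, on this array, against 0.87 to 1.16 on the others. The LPS difference of the brighter probe set was -0.11 ± 0.16 in WT and 0.11 ± 0.16 in KO, with intervals of -0.46 to 0.24 and -0.24 to 0.46. The KO value was -0.09 ± 0.13 without KO LPS array 2.

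Egr1, which carries the textbook immediate early response to growth factors and stress, read higher on every LPS array than on every unstimulated array of its genotype. The WT arrays read 7.48, 7.60 and 7.52 unstimulated and 7.81, 8.21 and 7.77 with LPS, and the KO arrays 7.76, 7.56 and 7.86 unstimulated and 7.97, 8.19 and 8.37 with LPS. The LPS differences were 0.40 ± 0.14 in WT (adjusted p = 0.823) and 0.45 ± 0.14 in KO (adjusted p = 0.317), neither past the threshold, and the KO value was 0.44 ± 0.16 without KO LPS array 2. Between genotypes Egr1 differed by 0.20 ± 0.14 unstimulated and 0.25 ± 0.14 after LPS (0.24 ± 0.16 without that array), and the groups overlapped. The difference between the LPS effects was 0.05, with an interval of -0.38 to 0.49, so a difference of either sign up to these bounds remains possible.

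Egr3, which is often induced downstream of Egr1, was dim at 3.48 to 4.27 on all arrays, and its values are less certain for that reason. In WT the arrays read 3.87, 3.57 and 3.48 unstimulated and 4.27, 3.94 and 3.90 with LPS, with no overlap. In KO they read 3.76, 3.78 and 4.04 unstimulated and 3.90, 3.64 and 3.95 with LPS, and overlapped. The LPS difference was 0.40 ± 0.15 in WT (adjusted p = 0.851) and -0.03 ± 0.15 in KO (adjusted p = 0.971), or 0.06 ± 0.15 in KO without KO LPS array 2. The difference between these effects was -0.43 ± 0.21 (adjusted p = 0.957), with an interval of -0.88 to 0.02, and -0.34 ± 0.20 without that array, so the genotypes were not shown to differ in it.

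The AP-1 genes had unlike profiles. Jun, the DNA-binding partner that can pair with itself, was the member with the largest positive difference between unstimulated genotypes. Its brighter probe set read 6.76, 6.87 and 6.70 in WT and 7.14, 7.53 and 7.09 in KO, and the second probe set 5.65, 6.00 and 5.52 in WT and 6.17, 6.64 and 6.03 in KO. All KO arrays lay above all WT arrays on both. The differences were 0.48 ± 0.18 (adjusted p = 0.474) and 0.56 ± 0.17 (adjusted p = 0.322), neither past the threshold, and adjusted p was 0.0966 and 0.158 without KO LPS array 2. After LPS the brighter probe set read 6.96, 7.07 and 7.01 in WT and 7.15, 6.51 and 7.31 in KO. KO LPS array 2 was below every other array of that probe set, and the groups overlapped. The difference after LPS was -0.02 ± 0.18 with that array and 0.22 ± 0.14 without it.

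The LPS difference of the brighter Jun probe set was 0.24 ± 0.18 in WT, where all LPS arrays lay above all unstimulated arrays, and -0.26 ± 0.18 in KO. The KO value was -0.02 ± 0.14 without KO LPS array 2. On the second Jun probe set the LPS difference in WT was 0.24 ± 0.17, and the WT groups overlapped. In KO it was -0.22 ± 0.17 with KO LPS array 2 and -0.165 ± 0.186 without it. The genotype difference of the second probe set after LPS was 0.10 ± 0.17 with that array and 0.15 ± 0.19 without it. The level of the brighter Jun probe set over the second was also smallest on that array, 0.55 against 0.87 to 1.27 on the others.

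Junb, a JUN protein that rises early in many responses, was the dimmest member at 3.02 to 3.60. WT arrays read 3.22, 3.09 and 3.25 unstimulated and 3.40, 3.60 and 3.27 with LPS, which did not overlap. KO arrays read 3.04, 3.42 and 3.02 unstimulated and 3.57, 3.16 and 3.52 with LPS, which overlapped through array 2 of each group. The LPS differences were 0.24 ± 0.14 in WT and 0.25 ± 0.14 in KO (adjusted p = 0.9998 and 0.620), and leaving out KO LPS array 2 gave 0.38 ± 0.14 in KO (adjusted p = 0.475). The genotypes differed by -0.02 ± 0.14 unstimulated and -0.01 ± 0.14 after LPS, with intervals of -0.33 to 0.30 and -0.32 to 0.31. Without that array the second was 0.12 ± 0.14.

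Fos, the partner that lends AP-1 its strongest activation domain, was bright, and its groups overlapped throughout. WT arrays read 7.24, 7.53 and 6.85 unstimulated and 7.15, 7.81 and 7.04 with LPS, and KO arrays 7.56, 7.26 and 7.35 unstimulated and 7.61, 7.74 and 7.51 with LPS. WT array 2 was the highest of its group both times and WT array 3 the lowest. The LPS differences were 0.13 ± 0.21 in WT and 0.23 ± 0.21 in KO, and the genotype differences 0.19 ± 0.21 unstimulated and 0.29 ± 0.21 after LPS. The LPS difference in KO was 0.17 ± 0.22 and the genotype difference after LPS 0.23 ± 0.22 when KO LPS array 2 was left out.

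Fosb, another FOS family gene, had the widest spread of the members. WT arrays read 6.29, 6.34 and 5.74 unstimulated and 6.32, 6.89 and 5.79 with LPS, and KO arrays 5.44, 5.86 and 6.09 unstimulated and 5.56, 4.95 and 6.34 with LPS. Groups overlapped in every comparison, and its residual SD of 0.50 was above that of 97.8% of probe sets. The KO minus WT difference unstimulated was -0.32 ± 0.34 (limma adjusted p = 0.880). LPS differences were 0.21 ± 0.34 in WT and -0.18 ± 0.34 in KO, the second turning to 0.15 ± 0.31 without KO LPS array 2. The KO minus WT difference after LPS was -0.72 ± 0.34 (adjusted p = 0.369) and -0.39 ± 0.31 without KO LPS array 2, which was the lowest of the 12 arrays.

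Atf3 read 6.83, 6.86 and 6.61 on the WT unstimulated arrays and 7.22, 7.00 and 6.93 on the KO unstimulated arrays, with no overlap. The difference was 0.29 ± 0.19 (interval -0.13 to 0.70, adjusted p = 0.766). With LPS, WT arrays read 7.00, 7.23 and 6.79 and KO arrays 7.16, 6.41 and 7.16, and overlapped. The LPS difference was 0.24 ± 0.19 in WT, and in KO it was -0.14 ± 0.19 with KO LPS array 2 and 0.11 ± 0.14 without it. The KO minus WT difference after LPS was -0.10 ± 0.19 with that array and 0.155 ± 0.143 without it.

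**Figure D2:**
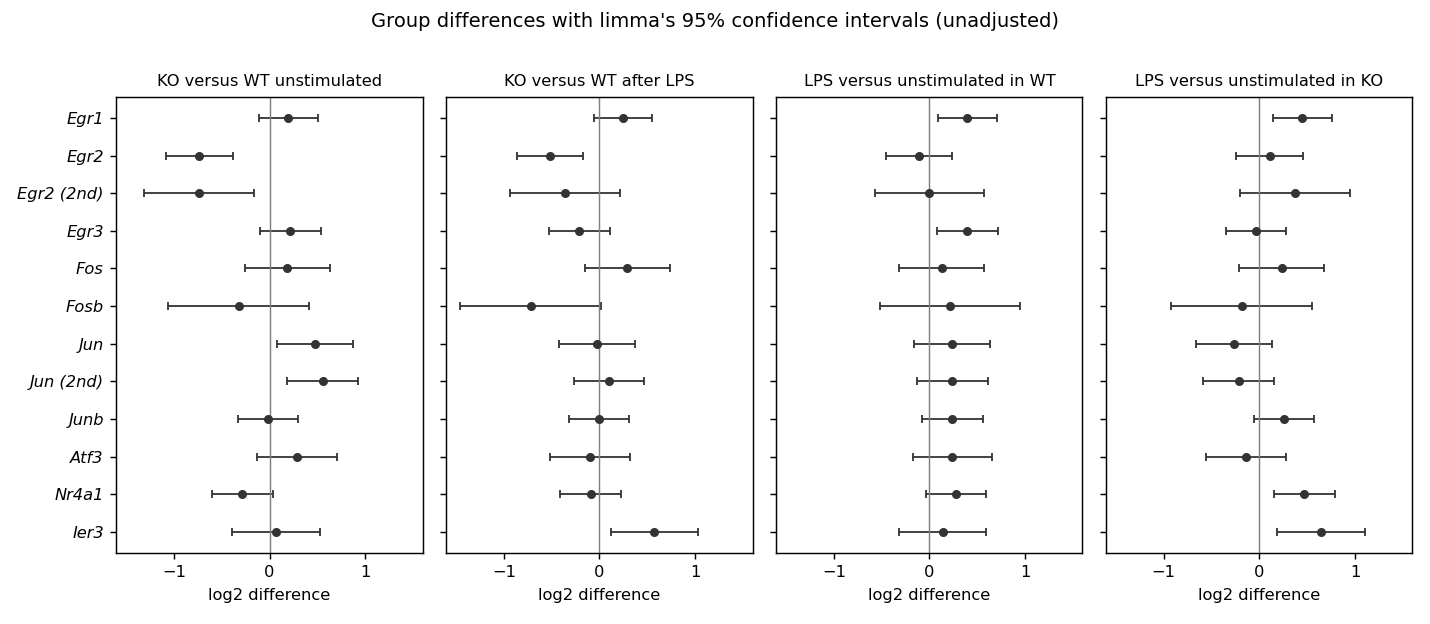
Log2 differences of the 12 probe sets with limma's unadjusted 95% confidence intervals, in 4 panels for the 4 pairwise comparisons. The intervals of both Egr2 probe sets lie below 0 between unstimulated genotypes and those of both Jun probe sets above 0, while 0 of the 12 passed the threshold after adjustment.

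Nr4a1 was the 1 member called for LPS in the fit without KO LPS array 2, where it rose in KO. Its arrays read 7.78, 7.75 and 7.84 in WT unstimulated and 7.99, 8.13 and 8.10 in WT with LPS, without overlap. In KO they read 7.38, 7.54 and 7.61 unstimulated and 8.06, 7.61 and 8.27 with LPS. KO LPS arrays 1 and 3 lay well above the unstimulated KO arrays, and KO LPS array 2 lay at the level of the highest of them. The LPS difference was 0.28 ± 0.15 in WT (adjusted p = 0.9998) and 0.47 ± 0.15 in KO (adjusted p = 0.305). Without KO LPS array 2 it was 0.66 ± 0.11 in KO (adjusted p = 0.0209), a rise to 1.58 times the unstimulated level, and in WT the same fit gave an adjusted p of 0.526.

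That Nr4a1 passed in one genotype and not in the other does not show that they differ. Subtracting the WT effect from the KO effect gave 0.19 ± 0.21 with all arrays and 0.38 ± 0.15 without KO LPS array 2, with adjusted p of 0.957 and 0.9994. The unstimulated level was lower in KO, with all 3 KO arrays below all 3 WT arrays, by -0.28 ± 0.15 (adjusted p = 0.640). After LPS the genotypes overlapped, at -0.09 ± 0.15 with the array and 0.09 ± 0.11 without it.

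Ier3 read highest on the KO arrays with LPS. WT arrays read 6.23, 6.04 and 6.05 unstimulated and 6.38, 6.38 and 5.98 with LPS, and KO arrays 6.32, 6.24 and 5.97 unstimulated and 7.39, 6.60 and 6.47 with LPS. The 3 KO LPS arrays lay above every other array, with array 1 far above the other 2. The KO minus WT difference after LPS was 0.57 ± 0.21 (adjusted p = 0.260) and the LPS difference in KO 0.64 ± 0.21 (adjusted p = 0.328), neither past the threshold. They were 0.29 and 0.36 without KO LPS array 1, and 0.68 ± 0.22 and 0.75 ± 0.22 without KO LPS array 2. LPS in WT gave 0.14 ± 0.21. In a fit added after the data were seen, with the array number as a block within genotype and without KO LPS array 2, Ier3 in KO changed by 0.79 (adjusted p = 0.0387) and Nr4a1 by 0.67 (adjusted p = 0.0199).

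**Figure D3:**
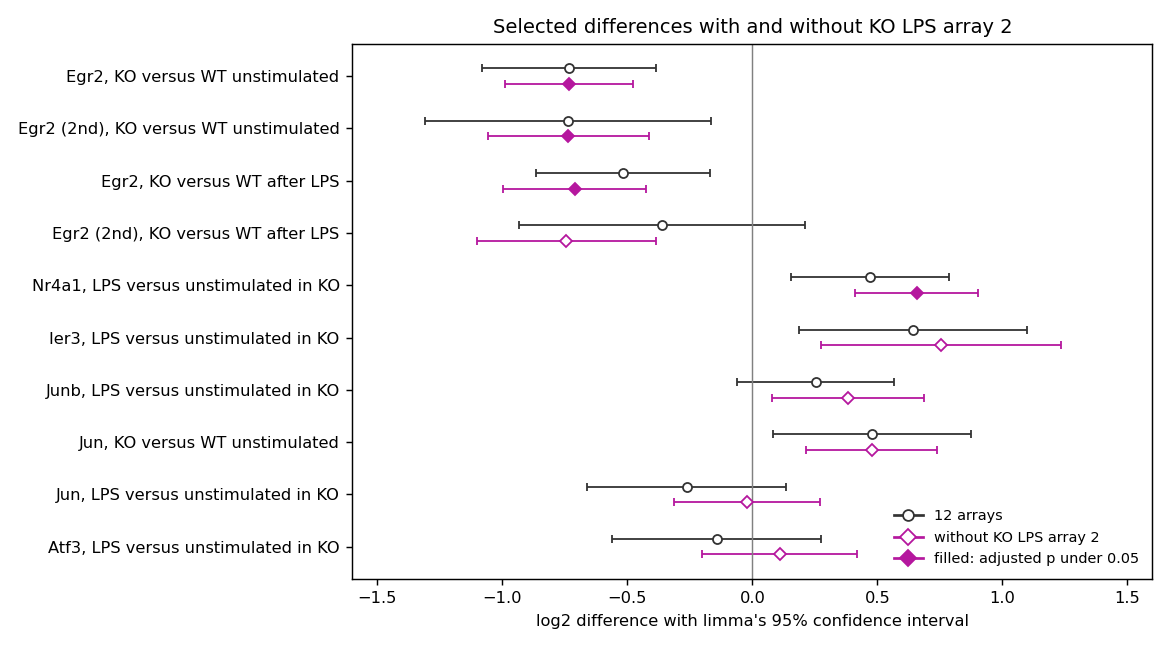
Log2 differences with limma's 95% confidence intervals for chosen genes and comparisons, with all 12 arrays (circles) and without array 2 of the KO group with LPS (diamonds), filled where the adjusted p is under 0.05. The Egr2 differences between unstimulated genotypes stay at -0.73 and -0.74 while their intervals narrow, and the Nr4a1 difference moves from 0.47 to 0.66.

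Counting groups whose arrays did not overlap, 6 of 12 probe sets were apart between unstimulated genotypes (both of Egr2, both of Jun, Nr4a1 and Atf3), against 16.5% of all probe sets. After LPS the genotypes were apart on 1 of 12 (Ier3), against 17.1%. LPS and unstimulated arrays were apart on 5 of 12 in WT (Egr1, Egr3, the brighter Jun probe set, Junb and Nr4a1), all higher with LPS, against 11.7% of all, and on 2 of 12 in KO (Egr1 and Ier3), against 13.5%. Without KO LPS array 2, where 3 arrays meet 2 and groups separate more often, the genotypes were apart after LPS on 4 of 12 (both of Egr2, the brighter Jun probe set and Ier3), against 25.8% of all. LPS and unstimulated KO arrays were then apart on 4 of 12 (Egr1, Junb, Ier3 and Nr4a1), against 24.2%. The median of the 12 differences was 0.13 between unstimulated genotypes (all probe sets -0.002), -0.06 after LPS (all -0.03), 0.24 for LPS in WT (all 0.002) and 0.17 for LPS in KO (all -0.02). Leaving out KO LPS array 2 turned the median after LPS to 0.14 (all -0.02), opposite in sign to that with all arrays, and gave 0.13 for LPS in KO (all -0.02).

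Arrays of the same number within a genotype were set against each other to see how even the LPS shift was. In WT, 9, 12 and 9 of the 12 probe sets were higher with LPS for numbers 1, 2 and 3, with median differences of 0.16, 0.36 and 0.19. In KO, 9, 6 and 11 were higher, with medians of 0.09, -0.04 and 0.22, against -0.03 to 0.02 for all probe sets in the 6 pairs. Egr1 and Nr4a1 were higher in all 3 pairs of both genotypes. Egr3, Fosb, Jun, Junb and Atf3 were higher in all 3 WT pairs but not in all 3 KO pairs, and Fos and Ier3 in all 3 KO pairs but only 2 of 3 WT pairs. For Fosb, both Jun probe sets and Junb the KO exception was number 2 alone.

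**Figure D4:**
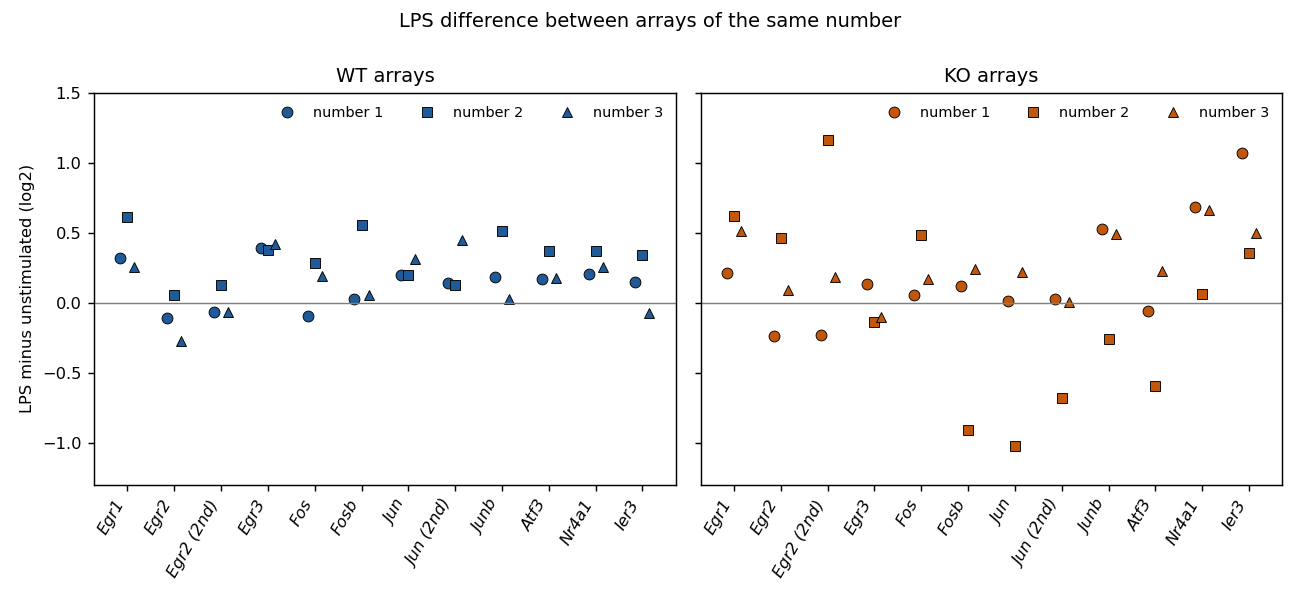
Log2 difference between the LPS array and the unstimulated array of the same number, for each probe set, in WT (left) and KO (right). WT differences lie between -0.27 and 0.62, and KO number 2 ranges from -1.02 for Jun to 1.17 for the second Egr2 probe set.

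The members shared some of their deviations within groups. WT LPS array 2 was the highest of its group on 9 of 12 probe sets and WT LPS array 3 the lowest on 9 of 12, where over all probe sets these arrays were highest on 32.5% and lowest on 33.1%. KO LPS array 2 was the lowest of its group on 7 and the highest on 3 (both of Egr2, and Fos), against 42.8% and 35.1% of all probe sets. Residual SDs ran from 0.18 for Egr1 (above 52.1% of probe sets) to 0.50 for Fosb, with Fos at 0.29, Ier3 at 0.29 and the second Egr2 probe set at 0.38. Against only the probe sets brighter than the median, Egr1 lay above 36.8% and Fosb above 96.4%.

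Ordering the group means from low to high, Egr1 and Ier3 ran WT unstimulated, KO unstimulated, WT with LPS and KO with LPS. Egr2 ran KO unstimulated, KO with LPS, WT with LPS and WT unstimulated on both probe sets. Nr4a1 and Junb ran KO unstimulated, WT unstimulated, KO with LPS and WT with LPS. Neighbours in these orders overlapped for all probe sets, with 3 exceptions. These were KO unstimulated below WT unstimulated for Nr4a1, WT with LPS below KO with LPS for Ier3, and WT with LPS below KO unstimulated for the brighter Jun probe set.

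Likeness of profile was measured as the root mean square difference between centred values over the 12 arrays, among 9520 genes, and describes arrays that share groups and RNA. The genes nearest to Egr2 were Tns3 (0.13 log2 units), Nr4a2 (0.14) and Epsti1 (0.18), where the Egr2 profile itself varied by 0.36. Nr4a2, the NR4A family member beside Nr4a1 and an immediate early gene too, read on its brightest probe set 7.25, 6.87 and 6.87 in WT and 6.33, 6.46 and 6.37 in KO, unstimulated. On this probe set the KO arrays lay below the WT arrays here and after LPS. Its differences were -0.61 ± 0.13 unstimulated (adjusted p = 0.119) and -0.61 ± 0.13 after LPS (adjusted p = 0.0799), and without KO LPS array 2 the adjusted p was 0.0396 and 0.0506. The next brightest Nr4a2 probe sets also read lower in KO. A dimmer one overlapped unstimulated and read higher in KO after LPS (WT 3.83, 3.80 and 3.715, KO 4.11, 4.16 and 3.94). The dimmest overlapped unstimulated and read lower in KO after LPS. Nearest to Nr4a1 were Traf6 (0.10), Map2k1 (0.11) and Bcl2a1a (0.11), to Egr1 Fbxo11 (0.12), to Ier3 Fas (0.18), to Jun Uxs1 (0.11) and to Atf3 Sec63 (0.07).

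Among 35 measured genes of a list of other immediate early genes, LPS in KO raised 2 and lowered 1, where 0.357% of all genes were called. Myc, the growth factor-responsive transcription factor, rose by 1.36 ± 0.23 (adjusted p = 0.0278) and Plk2, a stress-responsive kinase, by 1.41 ± 0.21 (adjusted p = 0.0125). Id3, an inhibitor of basic helix-loop-helix factors, fell by 0.88 ± 0.15 (adjusted p = 0.0310). In WT 0 of 35 passed (0.123% of all genes), with Myc at 1.33 ± 0.23 (adjusted p = 0.0557) and Csrnp1 at 0.84 ± 0.20 (adjusted p = 0.272). At an unadjusted limma p under 0.05 there were 9 of 35 in WT, where 4.93% of all probe sets passed. Without KO LPS array 2, Myc and Csrnp1 were called higher and Id3 lower in both genotypes, and Plk2 and Gadd45b were higher in KO. Between genotypes Id3 was the 1 gene of 35 called after LPS (0.374% of all genes), 0.81 ± 0.15 higher in KO (adjusted p = 0.0497). Unstimulated, 0 of 35 were called (0.222% of all genes). At an unadjusted limma p under 0.05 there were 14 unstimulated, where 8.49% of all probe sets passed. Without that array Id3 was called higher in KO both unstimulated (adjusted p = 0.0105) and after LPS (adjusted p = 0.0213), and Nr4a2 was called lower in KO unstimulated. The list medians for LPS were 0.11 in WT and 0.06 in KO, and 0.13 in KO without KO LPS array 2.

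Of the 21 measured kinases and promoter factors upstream of immediate early genes, limma called 0 in any comparison. At an unadjusted limma p under 0.05 there were 1 unstimulated and 7 after LPS between genotypes (8.49% and 13.9% of all probe sets). For LPS there were 0 in WT and 5 in KO (4.93% and 9.53% of all probe sets). With all arrays the largest differences were Map3k8 (0.89 ± 0.31, adjusted p = 0.369) and Rps6ka5 (0.86 ± 0.51, adjusted p = 0.635) for LPS in KO, Map2k4 (0.57 ± 0.29, adjusted p = 0.637) and Map3k8 (-0.54 ± 0.31, adjusted p = 0.695) between unstimulated genotypes, and Rps6ka5 (1.07 ± 0.51, adjusted p = 0.380) and Mrtfa (-0.88 ± 0.29, adjusted p = 0.223) between genotypes after LPS. When KO LPS array 2 was left out, the LPS differences in KO were 0.42 for Map3k8 and -0.02 for Rps6ka5, and the genotype differences after LPS 0.19 for Rps6ka5 and -0.47 for Mrtfa. In that fit Mapk14 (-0.49) and Map2k1 (0.46) had the largest differences for LPS in KO and Mapk14 (-0.53) between genotypes after LPS, and again 0 were called. Of the 16 measured AP-1 and ATF partners, Jdp2, a dimer partner of JUN and repressor of AP-1, was the 1 called. It rose by 1.27 ± 0.20 for LPS in KO (adjusted p = 0.0168), where 0.357% of all genes were called. In WT it had a difference of 0.89 ± 0.20 (adjusted p = 0.234, and 0.0314 without KO LPS array 2). Cebpb stood at 0.68 ± 0.43 between unstimulated genotypes (adjusted p = 0.742) and 1.21 ± 0.43 after LPS (adjusted p = 0.245), and the second was 0.57 ± 0.25 without KO LPS array 2.

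Among 16 measured cofactors and targets of EGR and NR4A factors, LPS raised 2 in WT and 4 in KO. Of all genes, 0.123% were called for LPS in WT and 0.357% in KO, in either direction. The cytokine gene Tnf rose by 1.40 ± 0.17 in WT (adjusted p = 0.00511) and 1.75 ± 0.17 in KO (adjusted p = 0.000863), and the activation marker gene Cd69 by 1.92 ± 0.23 (adjusted p = 0.00502) and 1.75 ± 0.23 (adjusted p = 0.00555). The chemokine gene Ccl4 rose by 1.84 ± 0.27 in KO (adjusted p = 0.0107). It was the 1 gene of 16 called between unstimulated genotypes (0.222% of all genes), lower in KO by -1.72 ± 0.27 (adjusted p = 0.0314). The adhesion gene Icam1 rose by 0.95 ± 0.13 in KO (adjusted p = 0.00703). Without KO LPS array 2 the counts for LPS were 4 in WT and 6 in KO (0.392% and 0.556% of all genes). With all arrays, the 12 probe sets of the immediate early factors had LPS differences of at most 0.40 in WT and 0.64 in KO, and without KO LPS array 2 at most 0.75 in KO.

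Of the 11 measured heat shock and handling genes, limma called 0 in any comparison with all arrays. At an unadjusted limma p under 0.05 there were 4 between unstimulated genotypes and 2 after LPS (8.49% and 13.9% of all probe sets). The mean level of the 11 genes was 6.68 to 6.93 on WT unstimulated arrays and 6.52 to 6.65 on KO unstimulated arrays. Hspa1b, an inducible heat shock gene, read on its brightest probe set 6.01, 6.21 and 6.40 in WT and 4.86, 4.53 and 5.003 in KO, unstimulated. The KO arrays were all lower, by -1.41 ± 0.34 (adjusted p = 0.161), and adjusted p was 0.000648 without KO LPS array 2. In that fit Hspa1b was also called lower in KO after LPS (-0.87 ± 0.15, adjusted p = 0.0301). This call rested on leaving out KO LPS array 2, whose signal of 6.84 on that probe set exceeded that of every other array. KO LPS arrays 1 and 3 had signals of 5.31 and 5.14, below the WT LPS range of 6.03 to 6.15. With all arrays the genotypes therefore overlapped after LPS on this probe set. On the next brightest, WT LPS arrays read 5.12, 4.77 and 4.68 and KO LPS arrays 4.24, 4.51 and 3.94, without overlap. The dimmest also read lower on all KO LPS arrays (2.42, 2.82 and 2.38) than on all WT LPS arrays (3.48, 3.49 and 3.18). On every Hspa1b probe set the unstimulated KO arrays and KO LPS arrays 1 and 3 lay below the WT arrays of the same treatment, as did both Egr2 probe sets. The part of Hspa1b in the Egr2 difference was not tested.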

How the data were processed

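Per the labels' protocols, DCs were taken from single spleens by positive selection, and total RNA was amplified from both oligo(dT) and random primers before biotin labelling and hybridisation. The deposited values are log2 signals that the authors normalised with RMA, per the submitters' processing notes, and no RMA version is stated there. Medians of single-symbol probe sets per array ran from 2.83 to 2.89.

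Of 45141 probe sets, 104 controls, 551 with several symbols and 15588 with none were left out. The 28898 left were fitted in 1 limma 3.58.1 model (R 4.3.3) with 4 group means, 5 contrasts and default eBayes settings (8 residual and 4.38 prior degrees of freedom), with no filter on dim probe sets. Benjamini-Hochberg adjustment ran over all 28898, at 0.05, and intervals cover 95%. Every probe set of a member was reported, and the one with the highest mean led. Where a list of other genes was counted, the brightest probe set of each of 17097 genes was used. In each list up to 3 called genes and up to 2 others with the largest differences were named per comparison, a choice shortened here. The model was tested on simulated data.

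The members and lists were chosen with earlier results of these data known. The labels do not state whether unstimulated and LPS arrays with the same number share a mouse. Deviations of such arrays from their group means had correlations of 0.352, 0.220 and 0.385 (WT) and 0.263, 0.250 and 0.387 (KO), so the numbers were treated as pairs within genotype in alternatives with a block. Unlike numbers within a genotype gave -0.292 to -0.047, below zero in part because deviations within a group cancel out. The same number across genotypes gave -0.004 to 0.209. What the numbers stand for was not tested. Number of arrays limits precision, and p-values measure the spread between these arrays. Promoters and microRNAs came from RefSeq tables, and probe set names from the platform annotation. Alternatives covered normalisation, array weights, moderation, filters, blocks and leaving out each array.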

Additional observations from a re-analysis of the deposited data

How the results depend on the processing

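Over 1430 values of the 12 probe sets under alternatives, 1361 kept direction and side of the threshold, 10 passed it that had not, 0 were lost or turned while called, and 59 uncalled values changed sign. Members called went from 0 to 1 with array weights between genotypes unstimulated, between genotypes after LPS (Egr2 in each) and for LPS in KO (Nr4a1), and to 1 with only the 6 arrays compared, unstimulated (Egr2). Leaving out each array gave 0 to 2 between unstimulated genotypes, 0 to 1 after LPS and 0 to 1 for LPS in KO, and every call came without KO LPS array 2. With the replicate block alone, by any of the 3 forms fitted, 0 members were called in each comparison, while calls over all probe sets for LPS went from 37 to 106 in WT and from 87 to 198 in KO with the fixed block within genotype, and between genotypes from 47 to 222 unstimulated and from 93 to 373 after LPS with the block over all arrays. The block together with leaving out KO LPS array 2, chosen after seeing the data, gave 2 for LPS in KO (Ier3 and Nr4a1). For the brighter Egr2 probe set unstimulated, the difference ran from -0.80 to -0.67 and adjusted p from 0.0122 to 0.411 over the alternatives. Egr3 and Junb were the dimmest members, so their differences are the least certain.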
